A study of Mus musculus with 12 samples.

Results

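The genes described here are the 10 NF-κB subunit and inhibitor genes of the mouse, chosen by name, out of 21896 protein-coding genes in the RefSeq GRCm38.p6 gene table. They comprise 6 inhibitor genes (Nfkbia, Nfkbib, Nfkbie, Nfkbiz, Nfkbid, Bcl3) and 4 subunit genes (Nfkb1, Nfkb2, Rela, Relb). Their peaks were found by position, as the listed peaks that share at least 1 base with a gene span. Where a peak lay over several genes it was given to the gene on its own strand. Of 118075 listed peaks, 65 fell in these genes, 44 of them in the 3 SSC lists and 21 in the 3 iNSC lists. All 10 genes had a peak in at least 1 list.

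The peaks are stretches of fragmented poly(A) RNA pulled down with an antibody to N6-methyladenosine (m6A). Whether the antibody bound m6A alone was not tested. SSCs are spermatogonial stem cells, grown on growth-arrested STO fibroblasts in a medium with GDNF, EGF, LIF and 10 ng/mL basic FGF. iNSCs are neural stem cell-like cells made from them on laminin, first in SSC medium with 1 µM retinoic acid for 24 h. The second step was a neural medium with 10 µM SB431542, a TGF-β receptor kinase inhibitor, and 20 ng/mL basic FGF. The labels give no strain, age or genotype, and they do not say that replicates were separate cultures, so every p-value measures only the spread between these libraries. In 12 of 12 samples the cell type field names the other cell type. Groups follow the sample titles. The 6 input libraries were not analysed here. A peak needs a transcript that is present and methylated, so less RNA, less methylation and fewer cells that make the transcript cannot be told apart.

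NF-κB transcription factors are dimers of Rel-homology proteins. RelA, RelB and c-Rel carry transactivation domains, while Nfkb1 and Nfkb2 encode the precursors p105 and p100, which are processed to p50 and p52. Classical IκB proteins (from Nfkbia, Nfkbib and Nfkbie) hold the dimers in the cytoplasm until the IκB kinase marks them for degradation. The atypical IκB proteins (from Nfkbiz, Nfkbid and Bcl3) act in the nucleus on p50 or p52 at target genes. Several of these genes are themselves NF-κB targets, which makes the pathway a feedback loop. In germ cells and neural stem cells the pathway is known mainly for its part in survival and proliferation. The series title names an IκB, NF-κB and cyclin D1 axis downstream of YTHDF1, a cytoplasmic protein that reads m6A.

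Called peaks lay over the first 30 bases of 6 of the 11 RefSeq start sites listed for these genes, in 5 genes. Those of 4 genes are shown because a peak reached the first 500 bases of their gene spans. For Rela the site shown lies inside the span, not at its first base. Letters are 5′ to 3′ on the gene's strand in GRCm38.p6, and capitals mark the letters GGAC, a common core of m6A sites, searched on the transcribed strand only.
Nfkbia, chr12:55492618-55492647, minus strand: gagaaatcccctgccagcgtttatagggcg
Nfkbie, chr17:45555700-45555729, plus strand: agagaagacctaactagGGACcgttcagct
Rela, chr19:5637541-5637570, plus strand: gtagtcgggccggcctcgGGACaaacagcc
Nfkbid, chr7:30421731-30421760, plus strand: agatcggGGACccggcggcggctccgcggg
The core stood in the stretch shown of Nfkbie, Rela and Nfkbid and not in that of Nfkbia. The sites not shown, Nfkb2 at 46305930 (under a peak in SSC replicate 1) and a further Nfkbid site at 30423275 (SSC replicate 3), lacked the core as well, so it stood in 3 of the 6 stretches under a peak. Of the 11 member windows, 4 held it in the first 50 transcribed bases, against 18.9% of all 32851 RefSeq promoter windows. Among the 4, that of Nfkb2 at 46305695 had no peak over its first 30 bases in any list. The 18.9% counts windows with or without a peak, so it is no background for the 3 of 6. The peaks themselves are longer than the stretches shown, so these letters do not place a methylated base.

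Promoter windows of Nfkbia and Bcl3, the genes with a peak in all 3 SSC lists and no iNSC list, are shown from 250 bases before the start site through the first 30 bases of the transcript. Capitals mark matches to the κB consensus, the NF-κB binding motif of 10 bases, searched on both strands, where a palindromic match counts once.
Nfkbia, chr12:55492618-55492897, minus strand: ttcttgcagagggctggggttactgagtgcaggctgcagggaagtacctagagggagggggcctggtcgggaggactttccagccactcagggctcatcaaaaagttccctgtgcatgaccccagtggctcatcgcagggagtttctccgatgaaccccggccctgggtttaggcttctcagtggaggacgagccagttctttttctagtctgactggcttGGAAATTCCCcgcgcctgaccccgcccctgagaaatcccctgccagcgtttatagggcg
Bcl3, chr7:19822726-19823005, minus strand: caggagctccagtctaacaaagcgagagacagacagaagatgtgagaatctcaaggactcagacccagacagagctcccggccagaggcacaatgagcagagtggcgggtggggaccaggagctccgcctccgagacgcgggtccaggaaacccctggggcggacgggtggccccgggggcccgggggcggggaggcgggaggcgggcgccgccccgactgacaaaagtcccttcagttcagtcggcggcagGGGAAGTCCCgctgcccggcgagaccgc
The Nfkbia match began 29 bases before the start site, and the Bcl3 match began at base 3 of the transcript. Of 7 members in the promoter table, 5 had a match in at least 1 window (Nfkbia, Nfkbie, Nfkbid, Bcl3 and Nfkb2) and 2 had none in the windows listed (Nfkbib and Rela). Promoters of Nfkb1, Nfkbiz and Relb were not analysed here. A match stood in 8.46% of all windows and in 9.55% of all genes listed there. A match describes the letters and is not evidence of binding.

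SSC lists were longer than iNSC lists, with 19728 to 27597 against 13913 to 16060 peaks, and this length bears on every count that follows. The score per peak is the authors' and was used only within its own list. It starts at 50 and is capped at about 3100. Its rank is given as a percentile, the share of peaks in the list with a lower score plus ties at mid-rank. Percentiles of lists of different length do not show a change in methylation. Of 10 germ cell markers 9, 6 and 7 had a peak in SSC replicates 1 to 3 (18 to 21 peaks in all), against 1, 1 and 2 in iNSC replicates 1 to 3 (2 to 3 peaks), with Ddx4 and Zbtb16 at 0 in the latter. The exceptions by count were Etv5, with 1, 0 and 2 peaks against 2, 3 and 2, and Gfra1, whose single peak was in iNSC replicate 3. Neural stem cell markers went against the label by count, with 6, 5 and 5 of 10 genes in SSCs (10 to 17 peaks) and 2 of 10 in each iNSC list (4 to 6 peaks). Sox2, Vim, Cdh2 and Msi1 each had a peak in 3 of 3 SSC lists and in 0 of 3 iNSC lists. Pax6 was the reverse, and Sox1, Fabp7 and Hes5 were at 0 in all lists. Fibroblast markers had peaks for 6, 4 and 9 of 10 genes in SSCs (8 to 21 peaks) and 5, 4 and 5 in iNSCs (9 to 15 peaks). Immune cell markers had peaks for 2, 1 and 0 of 10 genes in SSCs and 0, 0 and 1 in iNSCs, with Ptprc, Csf1r, Adgre1, Cd68, Lyz2 and Tyrobp at 0 in all 6 lists. The part of these cell types in the results below was not tested.

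**Figure D1:**
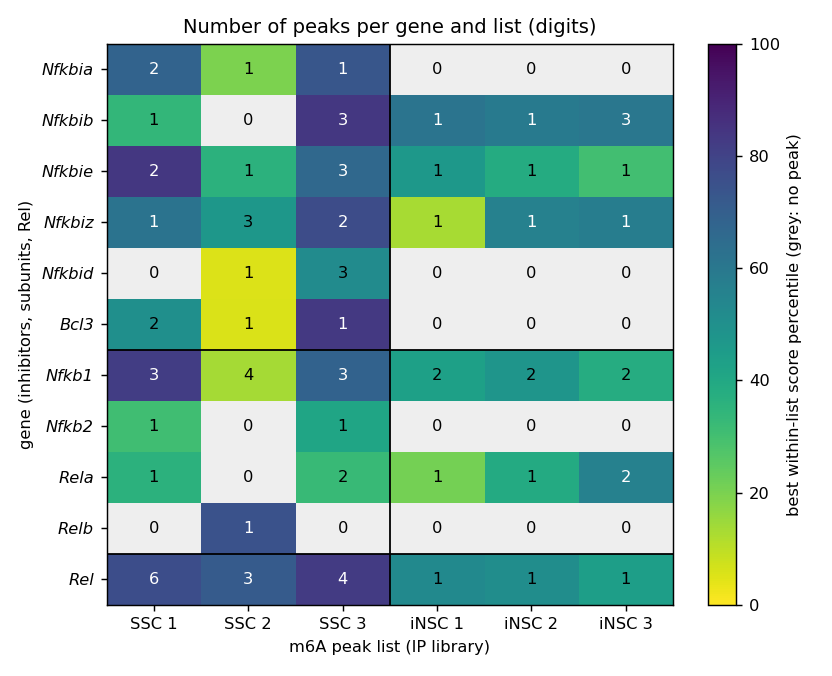
Number of m6A peaks (digits) in each NF-κB gene (rows: inhibitors, subunits, then Rel) and each list (columns: 3 SSC and 3 iNSC libraries), coloured by the best within-list score percentile, with grey for no peak. Nfkbia and Bcl3 are filled in the 3 SSC columns and grey in the others, and the iNSC columns hold the same 5 members.

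Nfkbia encodes IκBα, the inhibitor that is resynthesised fastest after NF-κB activation. It lies on chromosome 12 from 55489409 to 55492647 on the minus strand. The peak at its start, from 55492300 to 55492647, had the same edges in all 3 SSC lists and was absent from the iNSC lists. Its scores were 117, 82.7 and 419 in SSC replicates 1, 2 and 3, at percentiles of 38.6, 19.7 and 73.4. SSC replicate 1 held a further peak, from 55489452 to 55489969 near the other end of the gene, with a score of 295 (percentile 68.3). The gene thus held 2, 1 and 1 peaks in SSC replicates 1 to 3, against 0 for every iNSC replicate (SSC mean 1.33 ± 0.577 SD, n = 3). Covered bases numbered 866, 348 and 348 against 0. The groups did not overlap on either measure (exact two-sided permutation p = 0.1, the smallest that 3 against 3 libraries allow). In lists cut to 13913 peaks the start peak was left in SSC replicate 3 alone, since the lowest scores kept in the SSC lists were 156, 109.5 and 142.

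Bcl3 encodes an atypical IκB protein that joins p50 or p52 dimers at target genes and can activate transcription. Its span on chromosome 7 runs from 19808462 to 19822824 on the minus strand. Unlike Nfkbia, it had its shared peak at the far end. SSC replicates 2 and 3 listed 19808462 to 19809056 (595 bases), starting on the last base of the span, and SSC replicate 1 listed the inner 472 bases of that stretch. The scores of 159.7, 57.8 and 767 differed widely, at percentiles of 50.1, 5.64 and 83.4, and no iNSC list held a Bcl3 peak. A second peak from 19820047 to 19820200 appeared in SSC replicate 1 only (score 89.3). Peak numbers were 2, 1 and 1 against 0, and covered bases 626, 595 and 595 against 0, again without overlap between groups (exact permutation p = 0.1 for each).

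Nfkbid encodes IκBNS, a nuclear IκB protein, and spans 30421731 to 30428749 on chromosome 7, plus strand. It held 0, 1 and 3 peaks in SSC replicates 1 to 3, against 0 in the 3 iNSC replicates (exact permutation p = 0.4). SSC replicates 2 and 3 shared a peak of 103 bases that began 1 base after the gene's start, with scores of 57.3 and 179. The second peak of SSC replicate 3, from 30423275 to 30423479, began on the first base of another RefSeq start site of the gene. With a gap in SSC replicate 1 the gene met no call.

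Nfkbib encodes IκBβ, which binds the same dimers as IκBα but is resynthesised more slowly. It spans 28758251 to 28766644 on chromosome 7, minus strand, with peaks in SSC replicates 1 and 3 and all 3 iNSC lists. The peak from 28759827 to 28760096 had the same edges in SSC replicate 3 and in each iNSC list. Its score was 781 in SSC replicate 3 (percentile 83.6). In iNSC replicates 1 to 3 its scores were 683, 704 and 666 (percentiles 61.4, 59.0 and 60.3). A peak starting at 28761602 appeared in SSC replicates 1 and 3 and in iNSC replicate 3. Its scores were 105, 323 and 69.2, at percentiles of 33.9, 68.1 and 8.65. Peak numbers were 1, 0 and 3 in SSCs and 1, 1 and 3 in iNSCs, which overlapped (difference -0.333, exact permutation p = 1).

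Nfkbie encodes IκBε and spans 45555700 to 45563169 on chromosome 17, plus strand. The stretch at its start was the only one of the 10 genes with a peak in all 6 lists. SSC replicate 2 and the 3 iNSC lists gave it identical edges, 45555700 to 45556314. SSC replicates 1 and 3 listed narrower peaks inside it, of 226 and 267 bases, which did not cover the gene's first 30 bases. Scores in this stretch were 666, 133 and 300.3 in SSCs (percentiles 83.8, 35.9 and 66.2). In iNSCs they were 330.1, 252 and 165 (percentiles 46.6, 38.6 and 30.3). Near the other end, a peak that began at 45562002 was listed in SSC replicates 1 and 3, and another from 45562721 to the last base of the span in SSC replicate 3. Peak numbers of 2, 1 and 3 against 1 in each iNSC list overlapped (exact permutation p = 0.4), as did covered bases of 588, 615 and 1152 against 615 in each (exact permutation p = 1).

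Nfkbiz encodes IκBζ, a nuclear protein induced by interleukin 1 and Toll-like receptor signals, and spans 55811375 to 55838954 on chromosome 16, where its peaks lay on the minus strand. A peak of 806 bases, from 55817729 to 55818534, had identical edges in SSC replicates 2 and 3 and in the 3 iNSC lists. Its scores were 81.9 and 499.9 in those SSC lists (percentiles 19.4 and 76.8). In iNSC replicates 1 to 3 they were 83.4, 594 and 575 (percentiles 13.2, 55.9 and 57.8). SSC replicates 2 and 3 also held a peak close to the gene's end, and SSC replicates 1 and 2 each held 1 that no other list had. Numbers of 1, 3 and 2 in SSCs against 1 in each iNSC list overlapped (exact permutation p = 0.4).

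**Figure D2:**
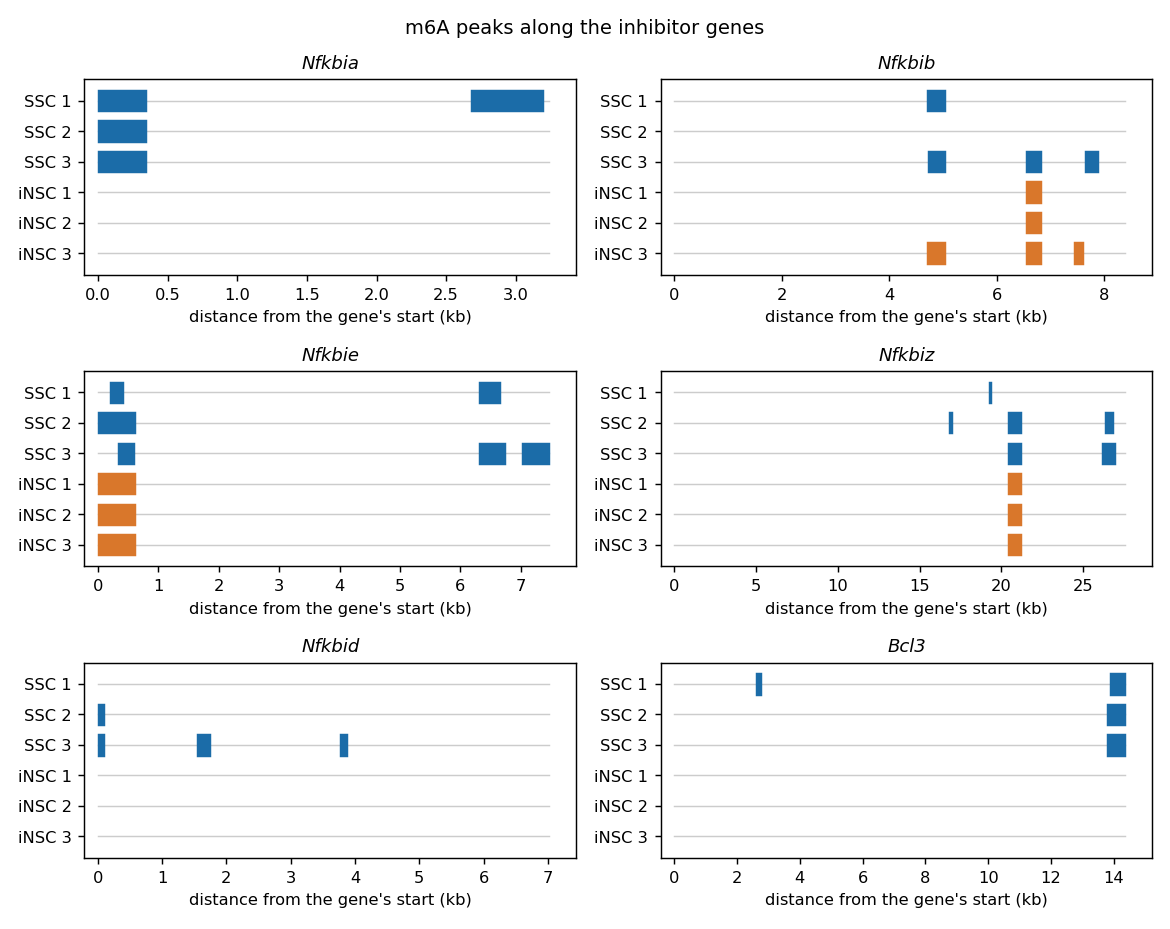
Peaks along the 6 inhibitor genes, 1 row per list (blue SSC, orange iNSC), with distance from the gene's start in kb on the horizontal axis and the grey line marking the gene span. Nfkbia carries its shared peak at the start and Bcl3 at the end, and Nfkbie has a peak at the start in all 6 lists.

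Nfkb1, which encodes p105 and p50, was the subunit gene with most peaks and the only member where number and length went opposite ways. It spans 135584655 to 135691969 on chromosome 3, with all its peaks on the minus strand. Its peaks numbered 3, 4 and 3 for SSC replicates and 2, 2 and 2 for iNSC replicates, but they covered 824, 506 and 801 bases against 1039, 962 and 886 bases. Neither measure overlapped between the groups (exact permutation p = 0.1 for each). A broad peak at the gene's end, whose inner edge was 135585515 in every list that had it, was listed in SSC replicates 1 and 3 (600 and 672 bases) and in the 3 iNSC lists (861, 784 and 708 bases). Its scores were 585 and 330.4 in these SSC lists (percentiles 81.9 and 68.6). In iNSC replicates 1 to 3 they were 286, 398 and 226 (percentiles 43.3, 48.0 and 38.1). The remaining SSC peaks were 50 to 164 bases wide, spread along the gene, and 2 of the stretches were shared by 2 SSC lists, from 135618804 and from 135626595. In the iNSC lists the second peak lay from 135589327 to 135589504, with identical edges in all 3, scores of 135, 108 and 53.9, and no SSC counterpart. With lists cut to equal length Nfkb1 kept 1, 0 and 1 peaks in SSCs and 2, 2 and 1 in iNSCs, so the direction of its number turned (difference -1, exact permutation p = 0.3). At a minimum peak width of 100 bases the difference in number was 0 (exact permutation p = 1).

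Rela encodes p65, the main transactivating subunit, and spans 5637442 to 5648134 on chromosome 19, plus strand. The iNSC lists all gave a peak from 5637483 to 5637841 at its start, with scores of 112, 258 and 525 (percentiles 20.8, 39.1 and 55.9). SSC replicate 3 listed only the last 64 bases of that stretch (score 106, percentile 32.6), ending on the same base. SSC replicate 1 had its peak elsewhere, from 5641464 to 5641676 (score 109), and SSC replicate 2 had none. A peak close to the gene's end, from 5647469 to 5648130, was seen in SSC replicate 3 only (score 63.2). Numbers of 1, 0 and 2 against 1, 1 and 2 overlapped (exact permutation p = 1), and so did covered bases of 213, 0 and 726 against 359, 359 and 511 (exact permutation p = 0.8).

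Nfkb2 and Relb encode the pair p100/p52 and RelB of the non-canonical pathway, and they had the fewest peaks. Nfkb2 spans 46300994 to 46312400 on chromosome 19, plus strand. On that strand SSC replicate 1 held a peak from 46305812 to 46306024 and SSC replicate 3 a peak of 805 bases from 46311581 to 46312385, with scores of 97.3 and 133. The other lists had none (1, 0 and 1 against 0, exact permutation p = 0.4). A further 5 peaks over the end of the Nfkb2 span lay on the minus strand, in SSC replicates 1 and 2 and all 3 iNSC lists. By strand they were placed in Psd, the gene that overlaps Nfkb2 from the other side. The plus-strand peak of SSC replicate 3 overlaps the same stretch, and that list held 0 Psd peaks. Which gene the signal in this stretch came from was not tested. Psd encodes an exchange factor for the small GTPase ARF6. Counted without regard to strand, Nfkb2 would have had a peak in all 6 lists. Relb, on chromosome 7 from 19606217 to 19629438, had a single peak of 11 bases in SSC replicate 2, from 19622926 to 19622936, with a score of 675 (percentile 74.9).

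Rel, which encodes c-Rel and was not among the 10 genes, gives a comparison within the family. Its peaks numbered 6, 3 and 4 against 1, 1 and 1, and they covered 1422, 1244 and 1683 bases against 1135, 1043 and 916. The groups did not overlap on either measure (exact permutation p = 0.1 for each). A broad peak ending at 23743040 on chromosome 11 was in all 6 lists. The peaks from 23756899 to 23757047 and from 23761013 to 23761155 were in all 3 SSC lists with identical edges and in no iNSC list.

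**Figure D3:**
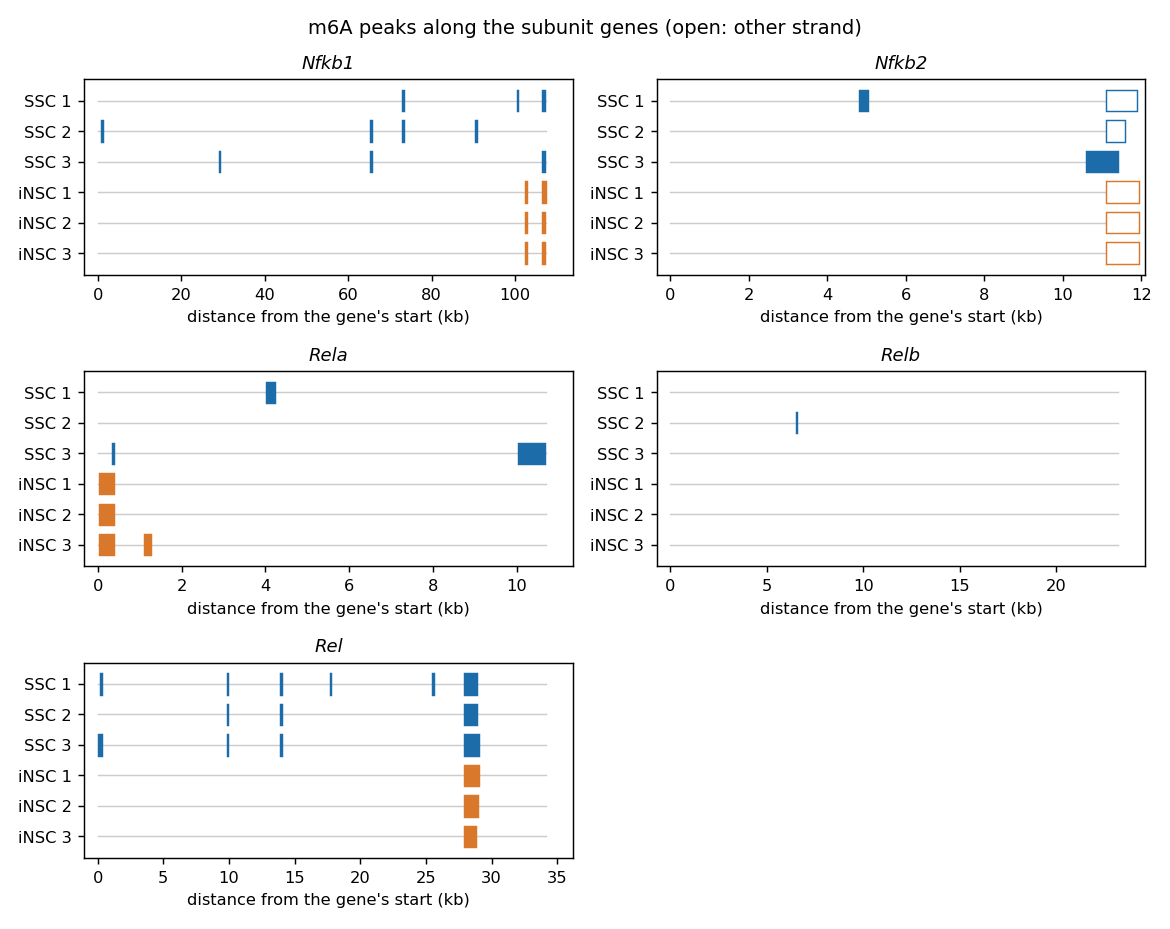
Peaks along Nfkb1, Nfkb2, Rela, Relb and Rel, 1 row per list (blue SSC, orange iNSC), with distance from the gene's start in kb on the horizontal axis. The narrowest peaks are drawn wider than scale so that they can be seen. Open boxes are the 5 peaks over the Nfkb2 span that lie on the other strand and were placed in Psd.

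Across the 10 genes, 8, 7 and 9 carried a peak in SSC replicates 1 to 3 (8 ± 1, SD, n = 3), against 5 for every iNSC replicate. The iNSC lists held the same members, Nfkbib, Nfkbie, Nfkbiz, Nfkb1 and Rela. Among all protein-coding genes, 42.6% ± 4.64 had a peak in SSC lists and 31.1% ± 1.31 in iNSC lists. Of the 10 genes, 2 were called SSC-only, meaning a peak in 3 of 3 SSC lists and in 0 of 3 iNSC lists, against 11.3% of the 13193 genes with a peak. None was called iNSC-only, against 2.18% of those genes. A count of 2 in 10 lies too near that background to set these genes apart.

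Peaks in the 10 genes numbered 13, 12 and 19 in SSCs (14.7 ± 3.79) and 6, 6 and 9 in iNSCs (7 ± 1.73), and covered 3791, 3648 and 7258 bases against 3089, 3012 and 3595. SSC replicate 3 held most of both, and without it the difference in covered bases fell from 1667 to 487.5. Peak number was above every iNSC list in every SSC list for 3 of 10 genes (Nfkbia, Bcl3 and Nfkb1), as for 16.5% of all genes with a peak, and the reverse held for 0 members and 4.22% of genes. For covered bases the SSC lists were above for 2 members (Nfkbia and Bcl3) and 15.6% of genes, and the iNSC lists for 1 member (Nfkb1) and 17.5% of genes. The median difference in peak number, SSC minus iNSC, was 1 over the 10 members and 0.333 over all genes with a peak. Mean peak number was higher in SSCs for 8 members and lower for 2 (Nfkbib and Rela), and higher for 67.6% of all genes.

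Merging overlapping peaks on a strand gave 33 stretches in the 10 genes. Of these, 24 had peaks in SSC lists only, 3 in iNSC lists only and 6 in both groups. The same split over all genes was not computed, and SSC lists are longer, so the split does not set these genes apart. The calls were 2 SSC-only stretches (the start of Nfkbia and the end of Bcl3), against 5.61% of 47305 stretches in all genes, and 1 iNSC-only stretch (in Nfkb1), against 3.38%. A single list accounted for 19 of the 33 (57.6%, against 46.4% over all genes), in 17 cases an SSC list. Of 30 stretches with an SSC peak, 3 recurred in all 3 SSC lists (10%, against 21.4% over all genes). Of 9 with an iNSC peak, 6 recurred in all 3 iNSC lists (66.7%, against 52.8%). Identical edges in another list were found for 14 of 44 SSC peaks (31.8%, against 41.8% of all SSC peaks in genes) and 16 of 21 iNSC peaks (76.2%, against 64.5%). Of the 30 SSC stretches, 17 were seen in 1 list only. Higher recurrence in iNSC than in SSC lists held over all genes too, so it does not set these 10 apart. Of the 33, 4 reached the first 500 bases of a gene and 11 the last 2000. These positions were not counted over all genes, so they are not shown to be particular to the 10.

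**Figure D4:**
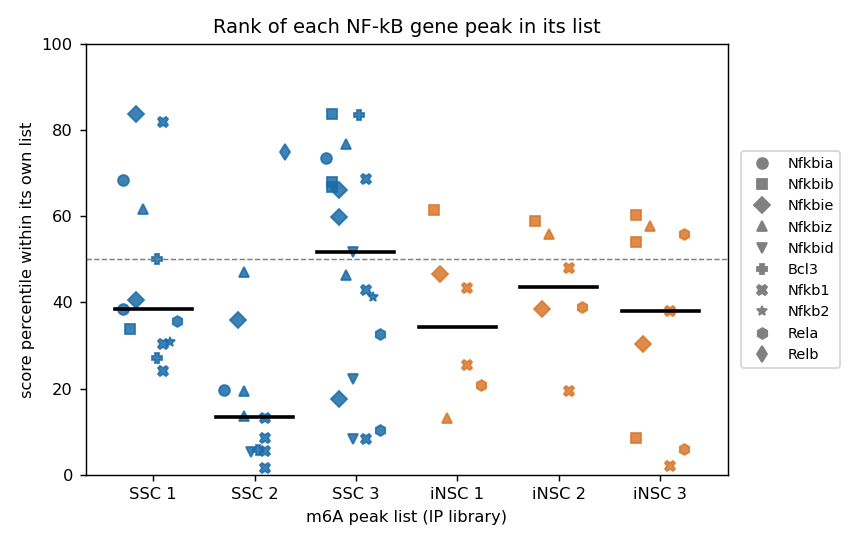
Score percentile of each peak in the 10 genes within its own list (vertical axis, percent), by list and with a marker shape per gene. Black bars are medians and the dashed line is the middle of the list, and no iNSC point lies above 61.4 while SSC lists reach 74.9 to 83.8.

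Peaks in these genes ranked from the bottom of their lists to the upper part, and none of the 65 reached the capped score, which 5.26% ± 2.03 of SSC and 16.2% ± 1.34 of iNSC peaks did. Their median percentile was 38.5, 13.4 and 51.8 in SSC replicates 1 to 3, against 34.4, 43.5 and 38.1 in iNSC replicates 1 to 3. SSC replicate 2 stood lowest, with 1 of 12 peaks above the middle of its list, the Relb peak of 11 bases. The best-scoring peaks had percentiles of 83.8 (Nfkbie), 74.9 (Relb) and 83.6 (Nfkbib) in SSCs and 61.4, 59.0 and 60.3 (Nfkbib each time) in iNSCs. For the 3 members with a peak in all 6 lists the best percentile overlapped between groups, with exact permutation p = 0.3 for Nfkbie, p = 0.4 for Nfkbiz and p = 0.6 for Nfkb1. Member peaks were narrower in SSCs, with medians of 226, 182 and 314 bases against 487, 487 and 334 in iNSCs, as were the lists as a whole (200.0 ± 6.24 against 399 ± 32.6 bases).

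**Figure D5:**
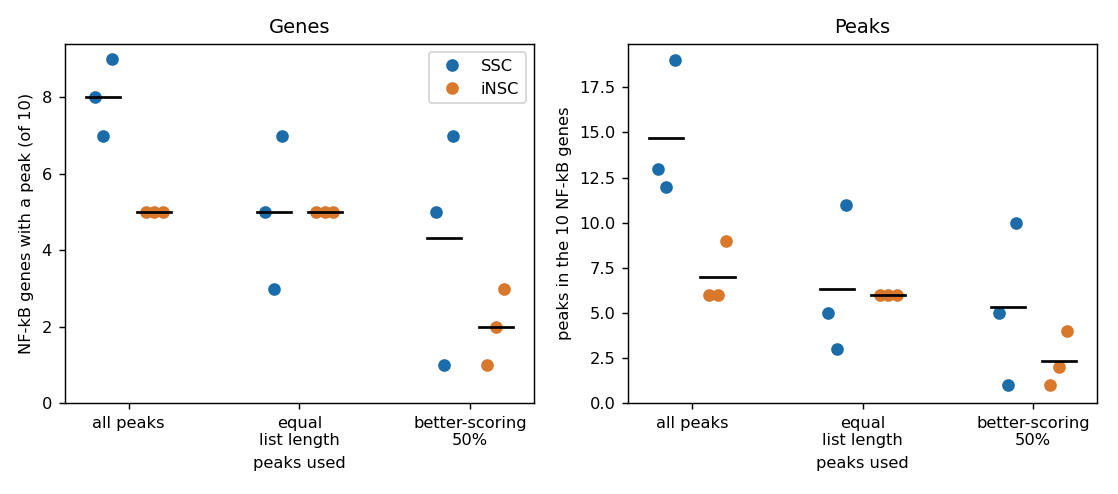
Number of the 10 genes with a peak (left) and number of peaks in them (right) per list (dots) with group means (bars), for all peaks, for lists of equal length and for the better-scoring 50% of each list. At equal length both groups have a mean of 5 genes.

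The excess in SSC lists was not seen at equal list length. With each list reduced to its 13913 best-scoring peaks, 5, 3 and 7 members had a peak in SSCs and 5, 5 and 5 in iNSCs. Nfkbia and Bcl3 were then left in SSC replicates 1 and 3, and Rela in all 3 iNSC lists and no SSC list. The pattern of Rela was met by 744 of 10797 genes with a peak at that length. Reduction removes peaks from the SSC lists mostly, so it lowers SSC counts by construction. Among the better-scoring 50% of peaks the counts were 5, 1 and 7 against 1, 2 and 3. This cut takes the same share of each list, so SSC lists stay longer and can keep more peaks by construction. Nfkbie and Nfkb1 then lost every iNSC peak and kept peaks in SSC replicates 1 and 3. Nfkbia, Bcl3, Nfkbid, Nfkb2 and Relb had no iNSC peak to lose. Nfkbia and Bcl3 stayed in SSC replicates 1 and 3, Nfkbid in SSC replicate 3 and Relb in SSC replicate 2, and Nfkb2 lost both of its peaks.

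For the other genes of the pathway the background is that of all genes with a peak, where the mean number was higher in SSCs for 67.6% and lower for 23.5%, with a median difference of 0.333, 11.3% SSC-only and 2.18% iNSC-only. All 6 genes of the kinase group (IKK subunits and relatives, and the kinase NIK) had a peak, all 6 with a higher mean number in SSCs and a median difference of 1.33. Their peaks summed to 23, 9 and 8 in SSC replicates 1 to 3, against 3, 6 and 5, so SSC replicate 1 held more than the other 2 together. Ikbkb and Ikbkg, which encode the IKKβ kinase and the NEMO scaffold of the IκB kinase, were SSC-only. Ikbkb held 7, 2 and 1 peaks and Ikbkg 2, 1 and 2. At equal list length the kinase genes were higher in SSCs for 3 of 6 and lower for 3, with a median difference of 0, and of the pair Ikbkb was SSC-only still. Of 19 adaptor and ubiquitin ligase genes 18 had a peak, 6 with a higher mean number in SSCs and 12 in iNSCs (median difference -0.5). None was SSC-only and Traf5, an adaptor of TNF receptor family members, was iNSC-only with 1 peak in each list. Btrc, the ubiquitin ligase subunit that recognises phosphorylated IκB, had 6, 4 and 7 peaks against 3 in each iNSC list. At equal length 17 adaptor genes had a peak, 4 higher in SSCs and 12 in iNSCs, with a median difference of -0.667. Of all genes with a peak at that length, 46.8% were higher in SSCs and 43.4% in iNSCs. Traf1, Traf5 and Tab1 were iNSC-only there. The background for these calls and that of Ikbkb is 744 iNSC-only and 747 SSC-only genes of 10797 with a peak.

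Deubiquitinase and other brake genes all had a peak (10 of 10), in 9, 6 and 6 genes in SSCs and 7, 7 and 8 in iNSCs. The median difference was 0.333, that of all genes with a peak. Nlrc5 was iNSC-only with 3, 2 and 3 peaks. At equal length 1 of 8 brake genes with a peak was higher in SSCs and 6 in iNSCs (median difference -0.5). Tnip1, whose product binds the deubiquitinating enzyme A20, held the most, with 3, 6 and 9 peaks against 4, 6 and 7. Of 12 textbook NF-κB target genes 5 had a peak. Icam1, an adhesion receptor gene, was SSC-only with 2, 2 and 4 peaks, and Vcam1 and Tnf were iNSC-only with 2 and 1 in each list. Ccnd1, the cyclin D1 gene of the series title, was at 0 in all 6 lists. Ythdf1 had 1571, 1521 and 1787 covered bases in SSCs and 2488, 2231 and 2245 in iNSCs (exact permutation p = 0.1).

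The genes whose best percentiles over the 6 lists lay nearest to those of Nfkbia were Wasf3, Chfr, Msh5, Terb1 and Cpeb2, at Euclidean distances of 2.67 to 6.84 percentile points. The choice itself fixes that their SSC percentiles lie close to those of Nfkbia. Since a list without a peak counted as 0, it also fixes that these genes lack iNSC peaks. Wasf3, the nearest, stood at 68.2, 18.9 and 70.9 against 68.3, 19.7 and 73.4 for Nfkbia.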

How the data were processed

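m6A immunoprecipitation libraries of 3 SSC and 3 iNSC samples were used, each a deposited list of peaks. The authors' score of a peak has no stated unit. The mm9 build, HISAT2 2.0.4 and cutadapt 1.9.3 are listed, with no role, among the submitters' processing notes. No source used here gives the settings of peak calling. The lists hold no read counts, so depth is unknown and no interval could be given. Positions matched GRCm38, not mm9: 4.90% to 12.0% of peaks per list had an edge on a GRCm38.p6 gene edge, and at most 0.0187% after a shift of 10000 bases. Coordinates are 1-based.

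Peaks over 1 gene (112948) were placed in it. Of the peaks over several genes, 2855 were placed by strand, taken from the RefSeq promoter table or, for Nfkb1, Nfkbiz and Relb, from the strand of over 90% of a gene's own peaks, and 957 were not placed. Exact two-sided permutation tests of peak numbers and covered bases were run in Python 3.11.15, and the functions were checked on simulated lists. Replicate numbers come from the titles. The members, gene lists and rules were chosen with earlier results of these data known. All 10 members are named, with Rel and genes of the title. Pathway genes were named up to 4 per group, those with a call first. Alternatives were the better-scoring 50%, equal length, a minimum width of 100 bases, other rules for calls, overlap, ties and placement, the replicate block, and leaving out each library. The any-strand placement and the pathway groups at equal length were added after seeing the data.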

Additional observations from a re-analysis of the deposited data

How the results depend on the processing

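Equal list length and the better-scoring 50% moved most results. At equal length the SSC minus iNSC difference was 0 for members with a peak (3 with all peaks), 0.333 for their peaks (7.67) and -471 for covered bases (1667), with 0 SSC-only members, 1 iNSC-only member (Rela), 0 SSC-only stretches, and 1 member whose peak numbers did not overlap. That member was Rela, with the iNSC lists above, whereas the 3 with all peaks (Nfkbia, Bcl3 and Nfkb1) had the SSC lists above. Of 10797 genes with a peak at equal length, 744 were iNSC-only and 747 SSC-only, so these calls do not set the members apart. Shares over all genes of stretches called and of genes without overlap were not computed at that length. In the better-scoring 50% the difference in peaks was 3. SSC-only members, SSC-only and iNSC-only stretches, and members without overlap in number or covered bases were then 0 each. A peak in 2 of 3 libraries gave 4 SSC-only members, adding Nfkbid and Nfkb2. The share of all genes so called was not computed, and the 11.3% given above is for the stricter rule. At a minimum width of 100 bases iNSC-only stretches numbered 2. Without regard to strand the difference in members was 2.33, and Nfkbia and Bcl3 were the SSC-only members still. Shares over all genes were also not computed for the better-scoring 50%, the minimum width or the any-strand placement.

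Leaving out each library gave differences of 2.5 to 3.5 members, 5.5 to 9 peaks and 487.5 to 2292.5 covered bases (the lowest without SSC replicate 3). SSC-only members ranged from 2 to 3, SSC-only stretches from 2 to 5 (5 without SSC replicate 1) and iNSC-only stretches from 1 to 3 (3 without SSC replicate 3). Members without overlap ranged from 3 to 5 for number (5 without SSC replicate 1 or 2), from 3 to 5 for covered bases (5 without SSC replicate 1) and from 0 to 3 for the best percentile (3 without SSC replicate 2). Shares over all genes were not computed with a library left out, so these counts have no background.

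Of 224 values per gene under an alternative, 14 changed sign. The 224 include 20 with the replicate block, which cannot change the sign. The exact permutation test cannot give a p below 0.1 with these libraries, also with a library left out. Number turned for Nfkb1 at equal length (-1), and over the left-out libraries it ranged from -1.17 to 0.333 for Nfkbib and from -0.833 to 0.167 for Rela. Covered bases turned at equal length for Nfkbie (-96) and Nfkbiz (-170), and in the better-scoring 50% for Nfkbiz (-226) and Nfkb1 (424). Over the left-out libraries they ranged from -272 to 145.5 for Nfkbib, -13.5 to 268.5 for Nfkbie, -7.5 to 720 for Nfkbiz and -303 to 59.8 for Rela. The best percentile of Nfkb1 ranged from -2.19 to 32.1. The cause was not tested.

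With the replicate block the smallest possible p is 0.25, so none of the 20 values could go below it. Blocking cannot change a difference of group means, so the difference in members, 3, is no check. The titles give same-numbered libraries only a shared number. The correlations of their deviations over genes were -0.000195, -0.0243 and 0.0558, and only replicate 3 correlated best with its own number. With 3 libraries per group these values cannot tell whether same-numbered libraries shared a preparation.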
